A study of Homo sapiens with 6 samples.

Results

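The genes described are 10 genes of the contractile actin cytoskeleton that serum response factor (SRF) and the myocardin-related transcription factors (MRTF) are known to drive: ACTA2, TAGLN, CNN1, CNN2, MYL9, TPM1, TPM2, CALD1, VCL and SRF itself. They were chosen by gene name, and all 10 were found among the 57914 genes of the deposited tables. All 10 were also expressed highly enough to be tested, among 17047 genes tested in all. The cells were A375, an established human melanoma line grown in high-glucose medium with serum. They were stained with Aldefluor, a dye that turns fluorescent in cells with aldehyde dehydrogenase (ALDH) activity, and sorted for the 5% with the highest signal (ALDH_High, 3 libraries) and the 5% with the lowest (ALDH_Low, 3 libraries). Nothing was given to either group beyond the stain and the sort, and every library comes from the same line.

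SRF is a transcription factor that binds a short DNA element called the CArG box, which reads CC, then a run of A or T, then GG. Its partners of the MRTF family are held back by unpolymerised actin and enter the nucleus when actin filaments assemble, so that the pathway links the state of the cytoskeleton to the genes that build it; partners of the ternary complex factor family (ELK1, ELK3, ELK4) instead link SRF to growth factor signals. In smooth muscle and in activated fibroblasts the targets form a contractile programme, in which smooth muscle actin filaments are coated by tropomyosins, calponins, caldesmon and transgelin, pulled by myosin, and anchored at focal adhesions through vinculin.

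Total counts per library ran from 26692868 to 37830603. ALDH1A3, the gene named in the series title beside the sort, was at 683, 1149 and 1088 CPM (counts scaled to library size) in ALDH_High libraries 1, 2 and 3 and at 345, 420 and 403 CPM in the ALDH_Low libraries, so the label check held in all 6. ALDH_High library 1 stood apart from the other two of its group on the second principal component of log2 CPM, at 49.1 against -22.0 and -32.5. Because its values for several of the genes below lie away from the other two, results without it are given where a call or a direction differs. Of markers of other cell types, the smooth muscle and pericyte list (7 genes) summed to between 9.82 and 15.5 TPM (scaled for transcript length and library size) in ALDH_High and to between 12.8 and 13.5 in ALDH_Low; DES and LMOD1 had at most 7 counts in any library, and MYH11 at most 24. Of the 5 rows tested there (RGS5 has 2 identifiers), PDGFRB was lower (edgeR adjusted p 0.00693, lost in 2 of 15 alternatives) and NOTCH3 was higher at the edge of the threshold (edgeR adjusted p 0.0499), a call lost in 10 of 15 alternatives. The fibroblast list (6 genes) summed to 9.65 to 12.4 against 6.38 to 7.91 TPM, and the white blood cell list (4 genes) to 3.49 to 7.90 against 1.94 to 2.75 TPM; the groups lay apart for both lists, although 0 of the 5 fibroblast markers tested passed and, of the white blood cell markers, LYZ was higher (log2 fold change 1.65, and 1.03 without ALDH_High library 1; lost in 5 of 15 alternatives), CD14 was lower (lost in 4 of 12) and PTPRC and CD3E had at most 4 counts in any library. The melanocyte lineage list (7 genes) differed most in summed TPM, with 374 to 454 TPM in ALDH_High against 117 to 128 TPM in ALDH_Low. Nearly all of that sum was SOX10, at 366 to 447 against 102 to 116 TPM (log2 fold change 1.79). MITF was lower (log2 fold change -0.92), with means of 6.16 against 11.3 TPM. MLANA, TYR, DCT and TYRP1 had at most 11 counts in any library. The part of these marker differences in the results was not tested.

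Promoter sequences were looked up first, because the CArG box is the feature that defines this gene group. Windows from 250 bases before to 50 bases after a RefSeq start site were found for 8 of the 10 genes, 14 windows in all (RefSeq, GRCh38.p14). No window was found for TAGLN or MYL9, so neither was searched. The exact box, 10 bases long, was found in the windows of 2 genes, SRF and CNN2. With up to 1 mismatch it was found in those of 4 genes, which adds ACTA2 and CALD1. Among all 34943 windows, 1.30% held the exact box and 18.9% held a box with up to 1 mismatch. These shares are per window, while the counts of genes above pool every window of a gene, so they are not like measures. The box reads as its own type on both strands, so a single search covers both. No box of either kind was found in the windows of CNN1, TPM1, TPM2 or VCL, which says only that these letters are not in these windows. The only windows of TPM1 (63048239 to 63048538) and VCL (73997866 to 73998165) lie inside the gene spans given below. The upstream ends of those spans, at 63042620 and 73995193, were not searched. Among relatives of the 10 genes, windows of ACTG1, ACTG2 and TPM4 held an exact box, and those of CNN3, TAGLN2 and TPM3 held none. The stretches below show the boxes of SRF, CNN2 and ACTA2, and that of TPM4 as the tropomyosin relative with an exact box. They also show the bases before the RefSeq start site used for TPM1 and for VCL. These 2 genes had the smallest p-values in the comparison that follows. Capitals mark a box; positions count back from -1, the base directly before the start site.
SRF, chr6:43171209-43171268, plus strand, exact boxes at -30 to -21 and -10 to -1: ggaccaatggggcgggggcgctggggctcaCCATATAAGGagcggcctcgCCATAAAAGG
CNN2, chr19:1026488-1026547, plus strand, exact box at -89 to -80: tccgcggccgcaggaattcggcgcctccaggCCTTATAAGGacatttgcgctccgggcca
ACTA2, chr10:88952814-88952913, minus strand, boxes with 1 mismatch at -121 to -112 and -71 to -62: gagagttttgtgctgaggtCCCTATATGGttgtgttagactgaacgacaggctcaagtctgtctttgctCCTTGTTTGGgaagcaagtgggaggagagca
TPM4, chr19:16067338-16067397, plus strand, exact box at -173 to -164: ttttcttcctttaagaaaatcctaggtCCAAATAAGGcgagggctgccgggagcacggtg
TPM1, chr15:63048389-63048488, plus strand, the 100 bases up to -1, no box: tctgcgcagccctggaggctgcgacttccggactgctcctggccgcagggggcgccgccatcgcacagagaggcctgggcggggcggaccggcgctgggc
VCL, chr10:73998016-73998115, plus strand, the 100 bases up to -1, no box: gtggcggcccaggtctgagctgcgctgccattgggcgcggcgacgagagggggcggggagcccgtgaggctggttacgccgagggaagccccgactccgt

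The 10 genes did not move as a block between ALDH_High and ALDH_Low. TPM1 and MYL9 rose, VCL and CNN1 fell, and ACTA2, TAGLN, CNN2, CALD1, TPM2 and SRF did not pass the test. That is 4 of 10 past the threshold of 0.05 on the adjusted p (quasi-likelihood test in edgeR, Benjamini-Hochberg over all genes tested), 2 higher and 2 lower, where 20.6% of all genes tested passed, 10.8% higher and 9.83% lower. For 5 of the 10 genes the libraries of one group all lay on one side of the other group, as they did for 37.8% of all genes. The median log2 fold change was 0.32 over the 10 genes and -0.01 over all genes tested, and the single values ran from -1.40 for CNN1 to 1.86 for TPM1. In an exact two-sided permutation test over libraries, the genes whose groups did not overlap (TPM1, MYL9, VCL, CNN1 and CNN2) gave p = 0.1, which is the smallest that 3 against 3 libraries can give. The labels do not say whether the replicates came from separate cultures, so p-values measure the spread between these libraries only. In bulk RNA, fewer cells with a transcript and less of it per cell cannot be told apart.

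**Figure D1:**
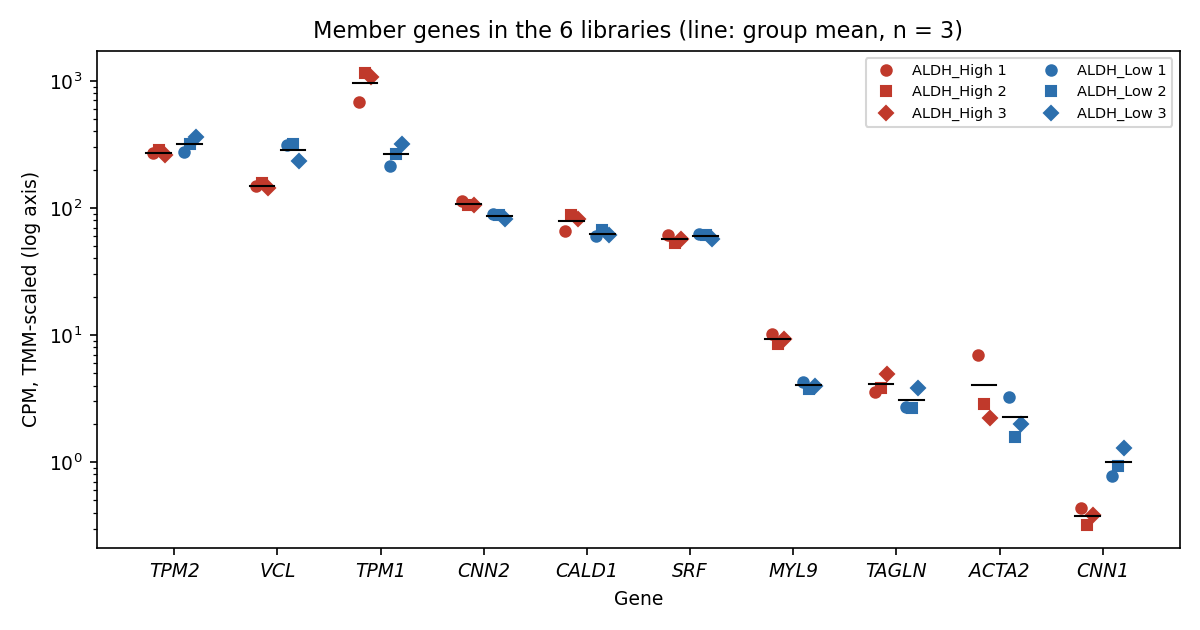
CPM of the 10 genes in each of the 6 libraries (log axis; red ALDH_High, blue ALDH_Low, marker shape the library number, black line the group mean, n = 3). TPM1 and MYL9 lie higher and VCL and CNN1 lower in all 3 ALDH_High libraries, and ALDH_High library 1 lies away from the other two for TPM1 and ACTA2.

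**Figure D2:**
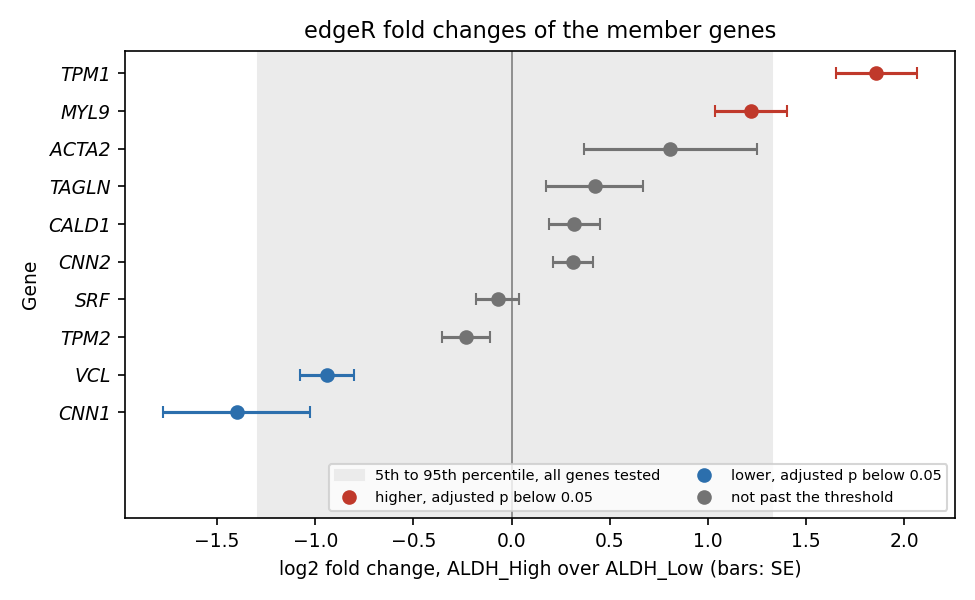
Log2 fold change of each gene, ALDH_High over ALDH_Low, with its standard error as bars; the grey band spans the 5th to 95th percentile of all genes tested, from -1.29 to 1.33. TPM1 lies above the band and CNN1 below it, while MYL9 and VCL pass the test within it.

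Tropomyosins lie along the groove of actin filaments and set which other proteins can bind there. TPM1 (ENSG00000140416, GRCh38 chromosome 15, 63042620 to 63071915) had the largest change of the 10. It was at 686, 1145 and 1066 CPM in ALDH_High libraries 1, 2 and 3 and at 213, 266 and 320 CPM in ALDH_Low libraries 1, 2 and 3. Every ALDH_High value was above every ALDH_Low value, and ALDH_High library 1 was the nearest to the other group, as it was for ALDH1A3. The means were 966 ± 246 and 267 ± 53.1 CPM (SD, n = 3), a 3.62-fold rise (log2 change 1.86 with SE 0.21, adjusted p 0.000186 in edgeR). Left out in turn, single libraries gave log2 fold changes from 1.73 to 2.07. TPM1 makes many splice forms, with muscle and non-muscle types among them, which gene-level counts do not separate.

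TPM2 (chromosome 9, 35681992 to 35690056), the beta-tropomyosin gene, did not follow TPM1. Its values were 269, 284 and 260 CPM in ALDH_High and 274, 319 and 363 CPM in ALDH_Low. ALDH_High library 2 lay above ALDH_Low library 1, so the groups overlapped (log2 change -0.23 with SE 0.12, adjusted p 0.228 in edgeR). The other two tropomyosin genes, both widely expressed in non-muscle cells, also did not rise. TPM3 had a log2 fold change of -0.13 (edgeR adjusted p 0.472). TPM4 was lower, at 416 ± 33.2 against 561 ± 37.4 CPM (SD, n = 3; log2 change -0.43 with SE 0.11, adjusted p 0.0189 in edgeR), and passed in 9 of 15 alternative analyses, not in limma nor without ALDH_High library 2 or ALDH_Low library 2 or 3. Of the 12 nearest relatives of the 10 genes, 9 were tested, 1 was higher (TAGLN3) and 1 was lower (TPM4). That is 22.2% called, near the 20.6% of all genes tested.

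Per length, the order of the tropomyosins by mean level differed between the groups. TPM1 had the highest mean of the family in ALDH_High at 874 ± 266 TPM, ahead of TPM3 (711), TPM2 (338) and TPM4 (247). In ALDH_Low, TPM3 (753 TPM) was ahead of TPM2 (382), TPM4 (320) and TPM1 (229). In ALDH_High library 1, TPM3 was still ahead of TPM1, at 668 against 568 TPM. TPM1 made up 32.4%, 43.3% and 43.1% of the summed tropomyosin TPM in ALDH_High libraries 1, 2 and 3 and 12.5%, 13.02% and 15.2% in the ALDH_Low libraries. The shares of TPM2 were 17.7%, 14.96% and 14.7% against 22.4%, 21.7% and 24.0%. None of the 4 tropomyosin shares overlapped between the groups, each at an exact two-sided permutation p of 0.1 (0.2 when adjusted over the 16 family shares compared). Shares within a family add up to a fixed whole, so a larger TPM1 share lowers the others. They are not 4 separate results, and by level TPM2 and TPM3 did not pass. Summed over the family, the level was 1756, 2428 and 2325 TPM in ALDH_High and 1500, 1806 and 1750 TPM in ALDH_Low, and there the groups overlapped through ALDH_High library 1.

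**Figure D3:**
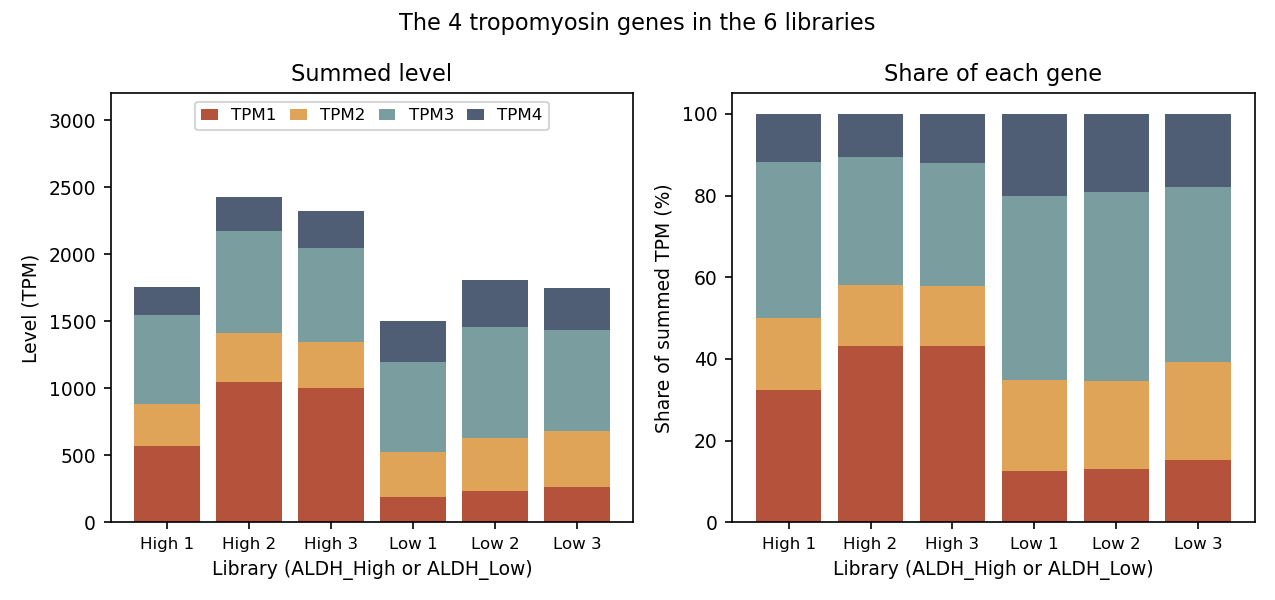
Levels of the 4 tropomyosin genes in each library, stacked as TPM on the left and as the share of their sum (%) on the right. TPM1 takes 32.4% to 43.3% of the sum in ALDH_High and 12.5% to 15.2% in ALDH_Low, and the summed level of ALDH_High library 1 lies below that of ALDH_Low library 2.

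MYL9 encodes a regulatory light chain of smooth muscle and non-muscle myosin, whose phosphorylation switches on contraction. MYL9 (ENSG00000101335, chromosome 20, 36541497 to 36551447) was at 10.2, 8.54 and 9.29 CPM in ALDH_High and at 4.28, 3.78 and 3.95 CPM in ALDH_Low. The libraries of each group lay close together and the groups well apart. The rise was 2.33-fold (log2 change 1.22 with SE 0.18, adjusted p 0.00107 in edgeR), and it stayed between 1.17 and 1.30 when single libraries were left out. The 437 genes tested on chromosome 20 lay mostly above 0, 74.6% of them, and their median log2 fold change was 0.25; the part of this in the MYL9 value was not tested. The chromosomes of the other 9 genes had medians between -0.02 and -0.01. The closely related light chains MYL12A (0.14, edgeR adjusted p 0.411) and MYL12B (0.06, 0.727) did not pass, and both were far more abundant than MYL9, at 308 and 427 TPM against 9.90 TPM in ALDH_High.

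VCL encodes vinculin, which ties actin filaments to talin and to the integrins at focal adhesions and strengthens under tension. VCL (ENSG00000035403, chromosome 10, 73995193 to 74121363) was at 149, 158 and 143 CPM in ALDH_High and at 314, 317 and 232 CPM in ALDH_Low. ALDH_Low library 3 was the lowest of its group and still lay above every ALDH_High library. VCL fell 1.92-fold (log2 change -0.94 with SE 0.14, adjusted p 0.000882 in edgeR), with values from -1.07 to -0.86 when single libraries were left out.

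Calponins bind actin and tropomyosin and restrain the myosin motor. CNN1 (ENSG00000130176, chromosome 19, 11538767 to 11550323), the basic calponin of differentiated smooth muscle, was the rarest of the 10, with 11, 11 and 13 counts in ALDH_High and 30, 28 and 36 counts in ALDH_Low. These correspond to 0.434, 0.318 and 0.381 CPM against 0.778, 0.937 and 1.29 CPM, and the groups did not overlap. CNN1 fell 2.64-fold (log2 change -1.40 with SE 0.37, adjusted p 0.0243 in edgeR). The call was not firm: it was lost in 8 of 15 alternatives, with adjusted p up to 0.109, among them the fits without ALDH_High library 2 or 3 or ALDH_Low library 2 or 3, while the direction was kept in all 15.

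CNN2 (chromosome 19, 1026586 to 1039068), a calponin of non-muscle cells, was far more abundant and lay higher in ALDH_High. It was at 113, 106 and 105 CPM in ALDH_High and at 90.1, 87.8 and 82.3 CPM in ALDH_Low. The groups did not overlap, but the difference was small and just missed the threshold (log2 change 0.31 with SE 0.10, adjusted p 0.0557 in edgeR). It passed with the DESeq2 Wald test (0.33, adjusted p 0.0376) and with limma on log2(TPM + 1) (0.36, adjusted p 0.0361). In 12 of 15 alternatives CNN2 did not pass. Among these were the same limma fit with no filter (adjusted p 0.0555) and every fit with a single library left out (edgeR adjusted p 0.0516 to 0.162). CNN3, the third calponin, had a log2 fold change of 0.33 (edgeR adjusted p 0.0908; 0.46 and 0.00785 without ALDH_High library 1). The share of CNN1 in the summed calponin TPM was 0.250 ± 0.0695% in ALDH_High and 0.813 ± 0.244% in ALDH_Low (SD, n = 3), while that of CNN2 was 27.1 ± 3.73% and 27.0 ± 0.863%.

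ACTA2 encodes smooth muscle alpha-actin, the usual marker of smooth muscle and of myofibroblasts. ACTA2 (ENSG00000107796, chromosome 10, 88935074 to 88991339) was at 6.98, 2.87 and 2.23 CPM in ALDH_High and at 3.24, 1.57 and 1.98 CPM in ALDH_Low. Library 1 was the highest in either group, and ALDH_High libraries 2 and 3 lay below ALDH_Low library 1. The log2 fold change of ACTA2 was 0.81 (SE 0.44, edgeR adjusted p 0.243), and without ALDH_High library 1 it was 0.18 (edgeR adjusted p 0.750). In TPM, ACTA2 was a trace of the actin in these cells, 0.0588 ± 0.0295% of the summed TPM of the 6 actin genes in ALDH_High and 0.0361 ± 0.0146% in ALDH_Low (SD, n = 3). ACTB and ACTG1, the cytoplasmic actins, made up 46.7% and 53.2% in ALDH_High, and neither passed the test (edgeR adjusted p 0.960 and 0.620); the sign for ACTB changed with the tool used. Reads of the actin genes are uncertain where their sequences are nearly the same. ACTA2 also overlaps genes on the opposite strand: ACTA2-AS1 had between 4 and 19 counts, FAS between 153 and 375 and STAMBPL1 between 740 and 1423, the last far above ACTA2 itself (47 to 177), and TAGLN (80 to 167 counts) overlaps PCSK7 (2186 to 3022) the same way. VCL (3787 to 12112 counts) overlaps AP3M1 (1034 to 1605) likewise. For these genes reads of the opposite-strand partners cannot be told apart unless the counting used strand. How the counting treated strand is not given in the sources used here. ACTA2, TAGLN, VCL and CALD1 each also overlap 1 further annotated gene on the same strand, whose reads strand cannot separate.

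The profile of ACTA2 over the 6 libraries was set against those of 9528 genes that averaged 10 CPM or more, after centring each on its own mean log2 CPM. The closest were CDKN1A, a cyclin-dependent kinase inhibitor, with a root mean square difference of 0.177 on the log2 scale, KIAA0040 (0.213) and ABTB2 (0.228). CDKN1A was at 254, 124 and 107 CPM in ALDH_High and at 122, 83.0 and 90.4 CPM in ALDH_Low. It too was highest in library 1 of either group. The 3 genes were picked as the closest of 9528 over these same libraries, so such likeness is built into the choice. None of the 3 passed the test (edgeR adjusted p 0.119, 0.212 and 0.0958).

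TAGLN encodes transgelin (SM22), an early marker of smooth muscle that bundles actin. TAGLN (chromosome 11, 117199370 to 117207464) was at 3.59, 3.82 and 4.90 CPM in ALDH_High and at 2.72, 2.68 and 3.81 CPM in ALDH_Low. ALDH_Low library 3 lay above ALDH_High library 1, and the difference did not pass (log2 change 0.42 with SE 0.25, adjusted p 0.280 in edgeR). Its relative TAGLN2 had a log2 fold change of -0.34 (edgeR adjusted p 0.111), which passed without ALDH_High library 1 (-0.49, edgeR adjusted p 0.00350). TAGLN2 held nearly all of the transgelin TPM, 98.0 ± 0.334% in ALDH_High and 99.1 ± 0.176% in ALDH_Low (SD, n = 3). TAGLN3, a form best known from neurons, rose from 3.56 ± 0.680 to 8.55 ± 4.96 CPM (log2 change 1.26 with SE 0.36, adjusted p 0.0339 in edgeR). That value leans on ALDH_High library 1, which was at 14.3 CPM, and without it TAGLN3 was at 0.70 (edgeR adjusted p 0.0531). TAGLN3 passed in 8 of 15 alternatives. Its call was also lost in limma and without ALDH_Low library 1, 2 or 3 (edgeR adjusted p 0.111, 0.0881 and 0.0786).

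CALD1 encodes caldesmon, which binds actin, tropomyosin and myosin and dampens the motor. CALD1 (chromosome 7, 134744252 to 134970729) was at 65.5, 87.4 and 81.9 CPM in ALDH_High and at 60.1, 66.6 and 61.5 CPM in ALDH_Low. Only ALDH_High library 1 fell within the range of the other group (log2 change 0.32 with SE 0.13, adjusted p 0.116 in edgeR). Without that library CALD1 passed, at 0.45 (edgeR adjusted p 0.0118).

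SRF itself (ENSG00000112658, chromosome 6, 43171269 to 43181506) was the gene with the smallest difference of the 10. It was at 61.4, 53.1 and 56.6 CPM in ALDH_High and at 62.4, 60.9 and 56.4 CPM in ALDH_Low. The groups overlapped throughout (log2 change -0.07 with SE 0.11, adjusted p 0.711 in edgeR), and over 15 alternatives the log2 fold change stayed between -0.12 and -0.01. Of its 6 cofactors, 1 passed and was higher (16.7%, against 20.6% of all genes tested). That was MRTFA, at 33.6 ± 3.26 against 25.4 ± 0.345 CPM (SD, n = 3; log2 change 0.40 with SE 0.12, adjusted p 0.0414 in edgeR), a call lost in 8 of 15 alternatives with adjusted p up to 0.123, among them the fits without ALDH_High library 2 or any single ALDH_Low library. MRTFB, ELK1, ELK3 and ELK4 had log2 fold changes of 0.36, 0.12, 0.35 and 0.03 and did not pass (edgeR adjusted p 0.345, 0.591, 0.0828 and 0.930). Without ALDH_High library 1, ELK3 passed at 0.44 (edgeR adjusted p 0.0280). The sign for ELK4 changed under upper-quartile scaling. MYOCD, the smooth muscle and heart cofactor, was scarce and variable, from 0.0789 to 1.04 CPM in ALDH_High and from 0.108 to 1.57 CPM in ALDH_Low.

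Compared per length, the 10 genes spanned a wide range of levels. In ALDH_High the order by mean TPM was TPM1 (874), TPM2 (338), CNN2 (73.2), CALD1 (35.9), VCL (35.6), SRF (19.9), MYL9 (9.90), TAGLN (5.45), ACTA2 (5.33) and CNN1 (0.668). CALD1 and VCL, and TAGLN and ACTA2, had overlapping values, and the other neighbours in this order did not. In ALDH_Low it was TPM2 (382), TPM1 (229), VCL (66.3), CNN2 (57.0), CALD1 (27.7), SRF (20.3), MYL9 (4.10), TAGLN (3.89), ACTA2 (2.99) and CNN1 (1.69). There VCL and CNN2, MYL9 and TAGLN, and TAGLN and ACTA2 overlapped. In both groups the genes best known as smooth muscle markers (ACTA2, TAGLN and CNN1) had the 3 lowest means. MYL9, whose product also serves non-muscle myosin, came next above them, and TPM1 and TPM2 had the highest means. Gene-level values do not show which splice forms were abundant. The spread within a group also differed by gene: from the lowest to the highest ALDH_High library, CPM changed 3.13-fold for ACTA2 and 1.67-fold for TPM1, but 1.08-fold for CNN2 and 1.09-fold for TPM2.

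Of 25 further cytoskeletal targets of SRF and its MRTF partners, 20 were tested, 1 was higher and 4 were lower. That is 25% called, near the 20.6% of all genes, and the median log2 fold change was -0.04. This list shares genes with the family relatives, TPM4 among them, so the shares called in the lists are not separate results. The higher gene was DSTN, which encodes the actin-depolymerising factor destrin, at 340 ± 27.0 against 164 ± 20.2 CPM (SD, n = 3; log2 change 1.05 with SE 0.12, adjusted p 0.000268 in edgeR). CCN1 (CYR61 in the deposited tables), which encodes a secreted matrix protein and is also a target of YAP, was lower, at 112, 214 and 185 CPM against 546, 428 and 523 CPM (log2 change -1.55 with SE 0.21, adjusted p 0.000635 in edgeR). ANKRD1 (-1.18, edgeR adjusted p 0.0239), TPM4 and the non-muscle myosin heavy chain gene MYH9 (-0.38, edgeR adjusted p 0.0416) were the other genes that fell. The calls of ANKRD1 and MYH9 were lost in 7 and 8 of 15 alternatives, with adjusted p up to 0.203 and 0.231; without ALDH_High library 1 they stood at 0.0579 and 0.0626 (edgeR).

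Of 9 immediate early genes that SRF serves together with the ternary complex factors, 1 was higher and 1 was lower (22.2%, against 20.6% of all genes), with a median log2 fold change of -0.74. EGR3 rose from 6.08 ± 1.42 to 18.7 ± 1.73 CPM (log2 change 1.62 with SE 0.20, adjusted p 0.000314 in edgeR), and JUNB fell from 126 ± 7.59 to 72.6 ± 20.7 CPM (log2 change -0.79 with SE 0.18, adjusted p 0.0104 in edgeR; all SD, n = 3). The other 7 did not pass. The median of this list moved between -1.03 and -0.40 as single libraries were left out.

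The light chain encoded by MYL9 works bound to myosin heavy chains, whose non-muscle forms differed in direction between the groups. MYH14, a non-muscle myosin heavy chain gene, was at 57.2, 46.9 and 44.1 CPM in ALDH_High and at 9.29, 4.42 and 7.05 CPM in ALDH_Low (log2 change 2.83 with SE 0.24, adjusted p 3.78e-05 in edgeR). MYH10, another, rose from 146 ± 10.4 to 223 ± 9.83 CPM (SD, n = 3; 0.61, edgeR adjusted p 0.00249). MYH9, given above, was lower. DIAPH3, a formin that extends actin filaments, was at 0.60 (edgeR adjusted p 0.0328), a call lost in 8 of 15 alternatives with adjusted p up to 0.228, among them the fits without any single library other than ALDH_High library 1.

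Of 15 partners of vinculin at focal adhesions, 14 were tested, 1 was higher and 1 was lower (14.3%, below the 20.6% of all genes), with a median of -0.09. TES encodes testin, a LIM-domain protein of focal adhesions, and fell from 60.7 ± 4.37 to 24.2 ± 2.31 CPM (SD, n = 3; log2 change -1.33 with SE 0.12, adjusted p 6.07e-05 in edgeR). ACTN1, the gene of the actin cross-linker alpha-actinin, rose from 456 ± 43.3 to 622 ± 34.3 CPM (SD, n = 3; 0.45, SE 0.11, edgeR adjusted p 0.0172). Its call was lost without ALDH_High library 2, ALDH_Low library 1 or ALDH_Low library 3 (adjusted p up to 0.0615). TLN1, TLN2, PXN, ZYX, ILK and ITGB1 were among the 12 that did not pass.

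**Figure D4:**
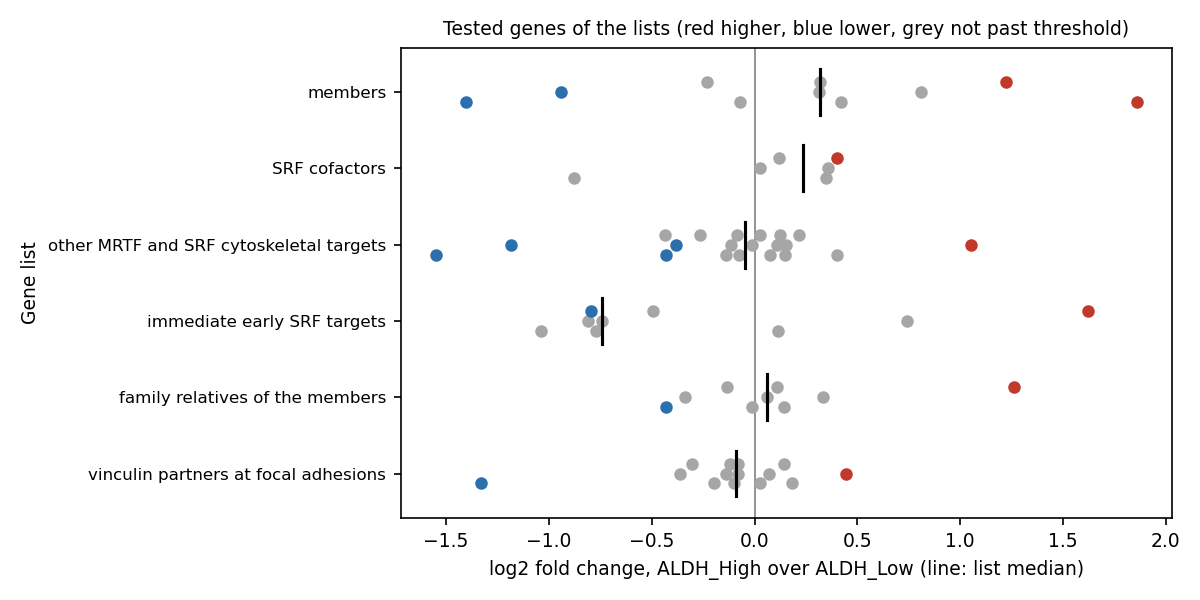
Log2 fold changes, ALDH_High over ALDH_Low, of the tested genes in the 10-gene group (top row) and in the 5 lists around it (red higher, blue lower, grey not past the threshold, black line the list median). Each row but that of the SRF cofactors holds both higher and lower genes, and the medians run from -0.74 for the immediate early targets to 0.32 for the 10 genes.

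In the authors' deposited table, each group is also set against a further group named 1A3 by log2 coefficients. For TPM1 they were 1.54 (high) and -0.34 (low) in the authors' deposited table. VCL had 0.92 and 1.84 in the authors' deposited table, so both groups lay above 1A3 there. MYL9 had -0.07 and -1.31, and CNN1 had -1.24 and 0.16 in the authors' deposited table. The coefficients share the group 1A3, whose libraries were not analysed here.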

How the data were processed

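RNA from 6 sorted A375 samples was measured with stranded mRNA libraries (TruSeq), per the labels' protocols. The submitters' processing notes name FastQC 0.11.3, STAR 2.5.1b, HTSeq 0.6.1, DESeq2 and the build GRCh38; the annotation release and the strand setting are not given in the sources used here. The table of counts deposited by the authors holds whole numbers, which behave as estimated counts rounded to whole numbers, since 133 to 177 genes per library had 0 counts beside a TPM above 0. The authors also deposited TPM values (scaled to the same total in each library, lengths not stated). Per the file headers, they further deposited log2 coefficients of a DESeq2 model, of which 226 rows with shifted cells were left out.

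From these, genes kept by filterByExpr were scaled with TMM and tested in edgeR 4.0.16 (quasi-likelihood, no block, 2 groups of 3), with 0.05 as the threshold on Benjamini-Hochberg adjusted p. Rows without a gene name (261) stayed in under their identifiers. CPM values are TMM-scaled; standard errors are the log2 fold change over the square root of F. No 2 libraries of a group agreed within sampling noise (chi-square per degree of freedom 13.5 to 56.1). Families were compared by shares of summed TPM, with exact permutation tests. Gene positions come from GENCODE 44. Precision is limited by counting at low counts, and depth is the range of totals given above. Alternatives were DESeq2 1.42.0, limma 3.58.1 on TPM, other scalings and filters, a replicate block, and each library left out.

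The members and the lists were chosen with earlier results of these data known. Besides the 10 genes, the text names the SRF cofactors and family relatives, up to 3 called genes of each direction with the smallest p per list, markers, ALDH1A3, and the 3 genes nearest to ACTA2. TLN1, TLN2, PXN, ZYX, ILK and ITGB1 were named after their values were seen. MYH14, MYH10 and DIAPH3 were named from a further list; that list as a whole and 1 marker are not reported here.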

Additional observations from a re-analysis of the deposited data

How the results depend on the processing

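The log2 fold changes of the 10 genes kept their direction in all 15 alternatives for each gene, and 138 of 150 also kept their side of the threshold; 8 lost a call (all for CNN1) and 4 gained one (CNN2 in 3, CALD1 in 1). TPM1 stayed between 1.73 and 2.07, MYL9 between 1.09 and 1.30 and VCL between -1.07 and -0.86, all past the threshold in 15 of 15. The number of the 10 genes past the threshold lay between 3 and 5 when single libraries were left out. Over all genes it lay between 2488 and 4221 then, and limma on log2(TPM + 1) with no filter gave 2006, the lowest count, and edgeR gave 4466 with no filter on low counts. Upper-quartile scaling gave 1644 higher and 1931 lower genes against 1838 and 1675, and moved the median of all genes to -0.06. The deviations of same-numbered libraries correlated at 0.15, 0.08 and 0.11, the highest value for each library but not all above the 0.1 asked for here, and no pairing was assumed; with the replicate block 3748 genes and the same 4 of the 10 genes passed, and of the calls over all genes 3330 were shared. The block changed the call of MRTFA only among the genes of the text (edgeR adjusted p 0.0566).

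The median of the 10 genes was 0.34 with DESeq2, 0.36 and 0.35 in limma on log2(TPM + 0.1) and log2(TPM + 1), 0.35 without a filter, 0.27 under upper-quartile scaling, and 0.24 to 0.33 with a library left out. That of the SRF cofactors was 0.40 and 0.38 in limma with pseudocounts 0.1 and 1, and 0.075 to 0.30 with a library left out (lowest without ALDH_Low library 3). That of the other cytoskeletal targets was -0.094 under upper-quartile scaling and -0.11 to -0.012 with a library left out. That of the family relatives ran from -0.049 to 0.087 with a library left out. The difference in share for TPM2 was -4.30 percentage points from counts in place of TPM (-6.92 from TPM; -7.88 to -6.27 with a library left out), and for CNN1 -0.259 (-0.563; -0.655 to -0.425). For CNN2 it was -2.4e-05 from counts against 0.10 from TPM, and -2.05 to 1.25 with a library left out. The difference for TPM1 ran from 24.2 to 29.6.

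For ELK4 the log2 fold change was -0.021 under upper-quartile scaling and -0.10 to 0.19 with a library left out, below 0 in the fits lacking ALDH_High 3 or ALDH_Low 3. For ACTB it was 0.0081 with DESeq2, 0.030 in each of the 3 limma fits, and -0.11 to 0.064 with a library left out. The cause was not tested. At 11 to 36 counts, CNN1 is limited by counting.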
